A study of Mus musculus with 4 samples.

Results

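Adventitial fibroblasts, the collagen-producing cells of the sleeve of loose connective tissue around the airways and larger vessels, were described in single-cell RNA sequencing of whole lungs from aged mice given BPTES or its solvent. They were chosen by the UMI counts of 14 genes, since no cell annotation was used here. A barcode was a member when it held at least 500 genes, at least 1000 unique molecular identifiers (UMIs, each standing for 1 captured transcript) and at most 10% mitochondrial UMIs. It also held at least 1 UMI of at least 3 of Pi16, Dpp4, Mfap5, Scara5 and Col14a1, among them Pi16, Dpp4 or Mfap5. UMIs of Ptprc (leukocytes), Cdh5 (endothelium), Msln (mesothelium) and Hhip (peribronchial fibroblasts) were absent, and fewer than 3 of the alveolar fibroblast genes Tcf21, Npnt, Ces1d, Inmt and Wnt2 were present. The rule found 471 members among 68675 kept barcodes. Since these genes chose the members, their levels are no result.

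The mice were male C57BL/6, 19 months old when treatment began, and received either BPTES or the DMSO vehicle for 1 month. BPTES is a small molecule that inhibits the breakdown of glutamine. Lungs were digested with Liberase for 1 hour and stained for CD45, the protein made from Ptprc; 20000 CD45-negative and 9000 CD45-positive cells of a tissue were then mixed for each 10x Genomics GEM-X 3′ library. There were 2 libraries with BPTES and 2 with DMSO. No label says whether the libraries of a group came from separate animals, so p-values measure only the spread between these libraries.

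Fibroblasts of the lung fall into classes that hold different places. Alveolar fibroblasts lie within the walls of the alveoli and support the epithelium, while peribronchial fibroblasts and myofibroblasts wrap the airways. Adventitial fibroblasts fill the cuffs where bronchi, arteries, veins and lymphatics run together. The adventitial class is known for a dense matrix of collagens and the small proteoglycan decorin, for complement and chemokine genes, and for the alarmin Il33, which acts on the innate lymphoid cells that share the cuff. Pi16 and Dpp4 mark fibroblasts of this kind in many organs.

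Members numbered 58 and 97 with BPTES and 191 and 125 with DMSO, in the order of the replicate numbers, which holds throughout. Their UMIs summed to 1459125 and 2411060 with BPTES and to 5748677 and 3141459 with DMSO, with medians per cell between 26768 and 31978. The whole libraries held 260346570 to 342107092 UMIs, and any pair of libraries shared 65 to 104 kept barcode sequences. At the edge of the rule stood members with exactly 3 of the 5 gate genes, 24 and 36 with BPTES and 71 and 30 with DMSO. Just outside stood barcodes with 2 of them that met the rest of the rule, 51 and 76 with BPTES and 94 and 61 with DMSO. Members with 2 of the 5 alveolar genes, just under that limit, numbered 50 and 83 with BPTES and 124 and 81 with DMSO. The gate gene part of the rule was met by 436 and 700 barcodes with BPTES and 743 and 723 with DMSO. Of these, 301 and 476 with BPTES and 408 and 408 with DMSO held at least 3 alveolar genes. The members were compared with 10465 alveolar fibroblasts, which held at least 3 of the 5 alveolar genes. They were also compared with 998 peribronchial fibroblasts, which held Hhip and at least 2 of Aspn, Fgf18, Mustn1, Lgr6 and Cdh4.

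The label was checked against markers that the rule did not use. Of 20 other adventitial markers, 20 were higher in the members than in alveolar fibroblasts in all 4 libraries, with a median log2 ratio of 3.73 (on CPM plus 1, where CPM are UMIs per 1000000 UMIs of the class and library), and 18 were higher than in peribronchial fibroblasts. Of 8 alveolar markers, 8 were lower in all 4 libraries (median log2 ratio -4.55). Of 10 peribronchial markers, 9 were lower than in peribronchial fibroblasts in all 4 libraries, and 6 were higher than in alveolar fibroblasts. Some of this list, among them Lgr6, Fgf18 and Cdh4, also chose the peribronchial class, so for these the first comparison is no check. Gabra3, Itgbl1 and Mmp3, markers of a further fibroblast class, were 3 of 3 higher in the members than in alveolar and in peribronchial fibroblasts in all 4 libraries (median log2 ratio 2.62 over alveolar), and the rule uses no gene of that class. Of 9 mesothelial markers outside the rule, 4 were higher and 2 lower than in alveolar fibroblasts in all 4 libraries (median log2 ratio 1.67). Against peribronchial fibroblasts 5 were higher and 1 was lower. These ratios describe a class that the counts themselves defined, and they carry no test.

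Some signals came from few members or from some libraries. The transcription factor Wt1, a marker of the mesothelium, had at least 1 UMI in 141 of the 471 members, most of them from DMSO libraries. The epithelial surfactant gene Sftpc reached at least 6113 UMIs in each of 5 members, 1 and 2 from BPTES and 2 from DMSO replicate 2, and these held 95.8% to 98.0% of the Sftpc UMIs of the members of their libraries. In BPTES replicate 2, 99.2% of the UMIs of the smooth muscle gene Myh11 lay in 2 cells. In DMSO replicate 1, 60.9% of the UMIs of the acute-phase gene Saa3 lay in 2 cells. Saa3 is counted in the acute-phase list below, Myh11 is not used further, and Sftpc is used to leave out these 5 members and in the sum of epithelial markers.

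Ebf2, a transcription factor of mesenchymal progenitors, had the largest ratio over alveolar fibroblasts among genes with at least 50 CPM in each library, at a log2 ratio of 7.32. Its level was 117 and 157 CPM with BPTES and 457 and 509 CPM with DMSO, while alveolar fibroblasts averaged 0.65 CPM. Sult1e1, the estrogen sulfotransferase, followed at 7.03, with 89.1 and 82.5 CPM with BPTES and 131 and 729.6 CPM with DMSO. Its level in DMSO replicate 2 stood well above the other 3 libraries, and there it was 1475 CPM in members with a Wt1 UMI and 45.2 CPM in those without. Lsamp, a cell-adhesion molecule of the neural immunoglobulin family, had 478 and 341 CPM with BPTES and 252 and 256 CPM with DMSO, against 1.81 in alveolar fibroblasts. A large ratio over alveolar fibroblasts and at least 50 CPM in the members of every library were conditions for naming these 3 genes.

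The matrix proteins of the class included decorin (Dcn), which binds collagen fibrils and set the upper end of the levels named here. Its level was 11802 and 10497 CPM with BPTES and 13758 and 14616 CPM with DMSO, compared with means of 238 CPM in alveolar and 2730.1 CPM in peribronchial fibroblasts. Lum, the related proteoglycan lumican, had 415 and 501 CPM with BPTES and 934 and 358 CPM with DMSO, which enclosed the peribronchial mean of 527. Decorin thus separated the members from both other fibroblast classes, while lumican separated them from the alveolar class alone. Serpinf1, the antiangiogenic protein PEDF, had 534 and 628 CPM with BPTES and 787 and 772 CPM with DMSO. Cd248, the stromal glycoprotein endosialin, had 98.0 and 159.7 CPM with BPTES and 174 and 248 CPM with DMSO.

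Immune genes were a further part of the profile. The eosinophil chemokine Ccl11 had 477 and 420.1 CPM with BPTES and 351 and 360.3 CPM with DMSO, against an alveolar mean of 6.17. C3, the central complement component, had 4795 and 3357 CPM with BPTES and 6206 and 4156 CPM with DMSO, against 653 in alveolar fibroblasts. Il6 had 778 and 664 CPM with BPTES and 661 and 549 CPM with DMSO, compared with 203. All 3 were higher in the members than in alveolar fibroblasts in each of the 4 libraries. The plot shows the 15 genes that led by ratio, with the other fibroblast classes beside the members.

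**Figure D1:**
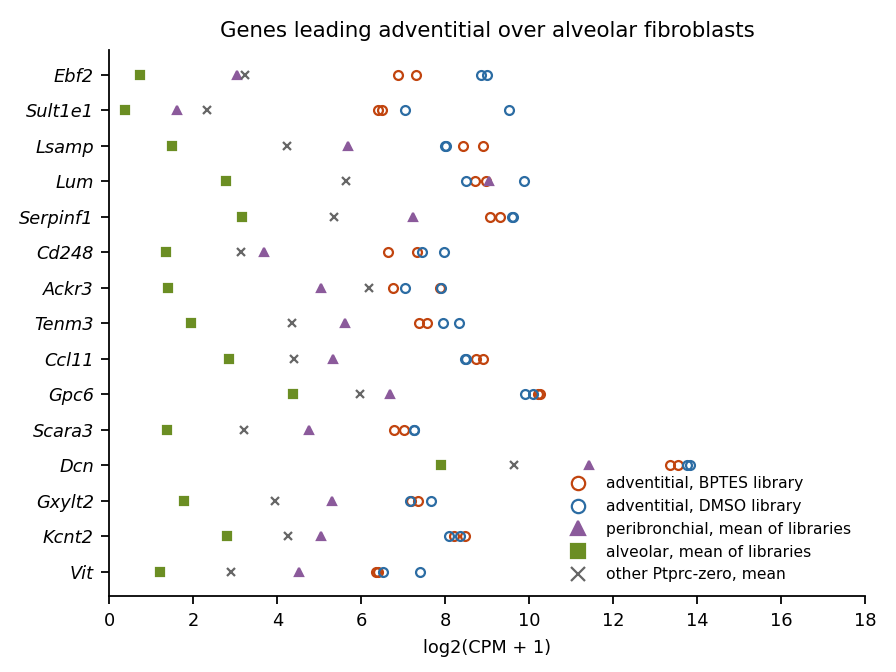
Levels of the 15 genes with the largest ratio of adventitial over alveolar fibroblasts, as log2(CPM + 1) on the horizontal axis; circles are adventitial fibroblasts of single libraries, and the other symbols are means over the 4 libraries of peribronchial fibroblasts, alveolar fibroblasts and the other Ptprc-zero barcodes. Every circle lies to the right of the alveolar square, and for Lum the circles surround the peribronchial triangle.

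Fewer members came from the BPTES libraries, but the difference in share did not pass a test. As a share of kept barcodes without a Ptprc UMI, members made up 0.546% (95% exact binomial interval 0.415 to 0.706) and 0.934% (0.758 to 1.14) with BPTES. They made up 1.96% (1.69 to 2.25) and 0.988% (0.823 to 1.18) with DMSO. The BPTES libraries were the lower ones without overlap, although BPTES replicate 2 and DMSO replicate 2 lay within each other's intervals, which cover counting error only. The means were 0.740% ± 0.274 (SD, n = 2) and 1.47% ± 0.685 (SD, n = 2), a difference of -0.73 percentage points (two-sided exact permutation test, p = 0.333, the smallest p that 2 libraries against 2 allow). Without members that hold Wt1, a gene taken up next, the difference was -0.15 points and the groups overlapped, at 0.546% and 0.857% with BPTES and 1.14% and 0.569% with DMSO. Without DMSO replicate 1 it was -0.25 points, and the groups also overlapped on counts thinned to 5000 UMIs per barcode and without possible doublets. Read on thinned counts, the rule took in more barcodes, 103 and 189 with BPTES and 251 and 210 with DMSO. That set is thus not the members described here. Alveolar fibroblasts made up 23.7% and 25.6% with BPTES and 25.4% and 22.2% with DMSO. All these are shares after the CD45 sort and mixing. The part of the limit on alveolar genes in the difference in share was not tested.

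Wt1 (GRCm38 chr2:105126529-105173616, plus strand) split the members of the DMSO libraries. It had at least 1 UMI in 0 of 58 members of BPTES replicate 1, which allows a share of up to 5.17% (3 counts of the total; exact binomial upper limit 6.16%). In BPTES replicate 2 it was found in 8 of 97 members, or 8.25% (95% exact binomial interval 3.63 to 15.6). Among DMSO members the share was 41.9% (34.8 to 49.2) in replicate 1, from 80 of 191 cells, and 42.4% (33.6 to 51.6) in replicate 2, from 53 of 125 cells. In alveolar fibroblasts, which should lack the gene, shares were 0.119%, 0%, 0.686% and 0.214% in the same order of libraries, at median depths of 18532 to 19859 UMIs against 26768 to 31978 in the members. After thinning to 5000 UMIs the members' shares were 0%, 6.52%, 34.8% and 36.1%. Thinning applied to the Wt1 reading and not to the choice of members, and it left out 22 members with fewer UMIs. The DMSO libraries thus held many more Wt1-positive members than the BPTES libraries, also with Wt1 read at equal depth. No test was made since the division was noticed in these data.

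Mesothelial barcodes were also unequal between the libraries. Ptprc-zero barcodes with at least 2 of Msln, Upk3b, Lrrn4 and Wt1 numbered 5 and 14 with BPTES and 137 and 64 with DMSO. Members were not left out of this count, so a member with Wt1 and Upk3b or Lrrn4 entered it too. It is therefore not separate from the count of Wt1-positive members above. Among the members, the summed level of 9 mesothelial markers was 67.8 and 119 CPM with BPTES and 565 and 479 CPM with DMSO, with Lrrn4 and Wt1 at 0 in BPTES replicate 1. Wt1 itself, at 0 and 34.0 CPM with BPTES and 404 and 332 CPM with DMSO, made up most of the sum in the DMSO libraries. Without that gene the sum was 67.8 and 84.6 CPM with BPTES and 161 and 147 CPM with DMSO. Of the 9 mesothelial markers, 6 passed the filter on low counts and were tested. Of these 6, 5 were lower with BPTES at an unadjusted p under 0.05 (Lrrn4, Nkain4, Rspo1, Upk3b and Wt1) and 0 were higher. Among all genes tested 5.85% were lower and 3.75% higher. The median of the 6 was -1.95 on the log2 scale. Lrrn4 and Wt1, at 0 in BPTES replicate 1, could pass the filter only with a DMSO library. The filter thus favoured lower values with BPTES for these genes. Upk3b, a uroplakin of the mesothelium, had 4.11 and 3.73 CPM with BPTES and 20.2 and 18.8 CPM with DMSO, so that both DMSO libraries lay above both BPTES libraries.

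Mesothelial markers also moved with Wt1 within the DMSO libraries. The summed level of the 8 markers other than Wt1 was 250.03 CPM in members with Wt1 and 65.5 CPM in those without in replicate 1, and 227 against 73.9 CPM in replicate 2. Of these 8, 6 were higher with Wt1 in both libraries, the exceptions being Cpe and Krt18. Upk3b stood at 38.2 against 0.723 CPM and 37.9 against 1.22 CPM, and Lrrn4 at 16.8 against 0 CPM and 12.6 against 0 CPM. Outside that list, Gpm6a stood at 52.0 against 0.362 CPM and 21.9 against 0 CPM. Bnc1, a transcription factor of the mesothelium, stood at 11.4 against 0 CPM and 5.98 against 0 CPM. The keratin gene Krt8, also outside it, stood at 0.335 against 0 CPM in replicate 1 and at 0 against 7.94 CPM in replicate 2. The members with Wt1 carried the fibroblast gene Dcn at 16034 and 18839 CPM in the DMSO libraries, compared with 11303 and 10737 CPM in the members without it. In BPTES replicate 2 Dcn stood at 10156 against 10536 CPM. The part of these cells in the treatment differences was not tested, and a second fold change printed for a gene below is that of the 330 members without a Wt1 UMI, a division made after the data were seen.

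**Figure D2:**
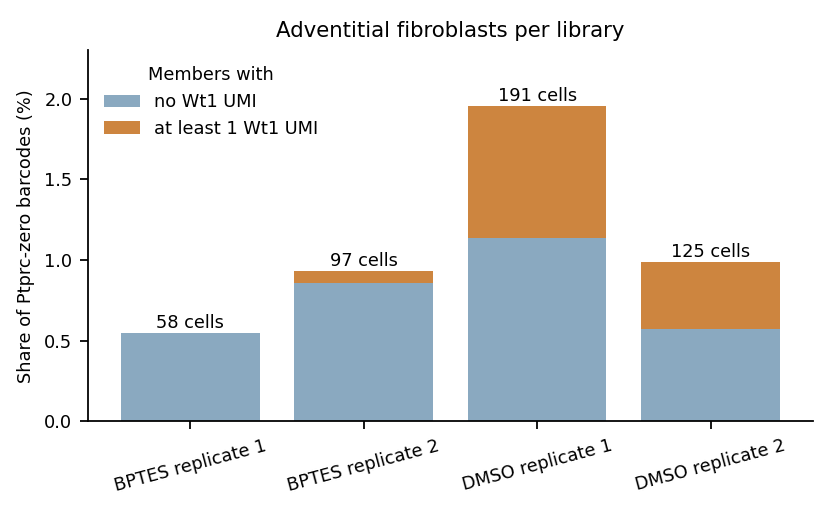
Share of kept Ptprc-zero barcodes that were adventitial fibroblasts in each library, in percent, divided into members with no Wt1 UMI and members with at least 1; the number above each bar is the count of members. The DMSO bars reach 1.96% and 0.988% and hold most of the Wt1-positive members, while BPTES replicate 1 holds none.

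Members with and without Wt1 differed in a recognisable set of genes within each DMSO library, given here as a description beside the mesothelial ones above. The collagen VI chain gene Col6a5 stood at 960 CPM in members with Wt1 and 13.0 CPM in those without in DMSO replicate 1, and at 324 and 0 CPM in replicate 2. The B-cell chemokine Cxcl13 stood at 704 against 11.6 CPM in replicate 1 and 486 against 21.4 CPM in replicate 2. Insulin-like growth factor 1 (Igf1) stood at 1106 against 316 CPM and 1285 against 231 CPM. These 3 genes, with Enpp2 at 588 against 122 CPM and 825 against 110 CPM, were higher in the members with Wt1 in both libraries. Lsamp ran the other way, at 30.5 against 491 CPM in replicate 1 and 1.33 against 490 CPM in replicate 2. So did the bone morphogenetic protein gene Bmp5, at 0.335 against 57.1 CPM and 0.665 against 59.8 CPM, and the matrix protease gene Mmp3, at 19.8 against 684 CPM and 76.5 against 765 CPM. Lsamp, Bmp5 and Mmp3 were thus lower in the members with Wt1 in both DMSO libraries. BPTES replicate 2 held 8 members with Wt1. There Col6a5 (80.2 against 0.463 CPM), Cxcl13 (1268 against 11.6 CPM) and Igf1 (610 against 215 CPM) were also higher with Wt1. Enpp2 was not, at 108 against 116 CPM. In all members of that library, 2 cells held 90.5% of the 21 Col6a5 UMIs and 92.1% of the 341 Cxcl13 UMIs. For Igf1 they held 19.2%. The Col6a5 and Cxcl13 values there thus rest on few cells. Lsamp (4.01 against 380 CPM), Bmp5 (4.01 against 105 CPM) and Mmp3 (0 against 627 CPM) were lower there too.

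BPTES and DMSO members were then compared over libraries, to ask how adventitial fibroblasts of the aged lung differ after BPTES. No gene passed: edgeR's quasi-likelihood test with Benjamini-Hochberg adjustment called 0 of 11546 genes at an adjusted p under 0.05 (percent called 0). At an unadjusted p under 0.05 there were 1108 genes, 433 higher with BPTES (3.75%) and 675 lower (5.85%). Fold changes of the genes tested had a median of -0.0041 on the log2 scale. The smallest adjusted p was 0.0531, shared by 12 genes, all of them lower with BPTES. DESeq2 called 92 genes, 18 higher and 74 lower, and edgeR without the 5 members rich in Sftpc called 17. The genes below are therefore given with their values and are not calls.

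The 10 genes with the smallest p on the lower side differed in function. Igf1 (GRCm38 chr10:87858265-87937042, plus strand), a growth factor that stromal cells secrete, had 247 and 255 CPM with BPTES and 726 and 735 CPM with DMSO. The libraries of each group lay close together and the groups were far apart, with a log2 fold change of -1.53 ± 0.14 (SE; edgeR adjusted p = 0.0531). In members without Wt1 it was -0.22. Enpp2 (chr15:54838901-54952892, minus strand), which encodes autotaxin, the enzyme that makes lysophosphatidic acid, had 119 and 115 CPM with BPTES and 364 and 452 CPM with DMSO. Its log2 fold change was -1.80 ± 0.17 with all members and 0.042 without the Wt1-positive ones. Sema5a, a guidance molecule, had 73.3 and 84.2 CPM with BPTES and 265 and 227 CPM with DMSO, with a log2 fold change of -1.63 that became -0.23 in members without Wt1. For these 3 genes the difference was small in the members without Wt1; that their groups did not overlap was a condition for naming them.

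Zfhx4, which had the smallest p of all, Meis2 and Adamts12 were also among them. Zfhx4 (chr3:5218526-5415857, plus strand), a zinc-finger homeobox gene, had 65.1 and 58.9 CPM with BPTES and 210.5 and 212 CPM with DMSO, a log2 fold change of -1.76 ± 0.16 (SE), and -0.64 without Wt1-positive members. Meis2, a homeobox cofactor, had 167 and 163 CPM with BPTES and 423 and 438 CPM with DMSO, a log2 fold change of -1.38, and -0.41 without them. Adamts12, a secreted metalloproteinase of the ADAMTS family, had 119.9 and 149.7 CPM with BPTES and 437 and 481 CPM with DMSO, with -1.75 and -0.70 in the same order. These 3 genes kept their direction in the members without Wt1 at a smaller size. Ebf2, the gene that led the class over alveolar fibroblasts, had a log2 fold change of -1.81 ± 0.19 and retained -1.43 in members without Wt1.

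The other 4 of the 10 were low-abundance genes with larger fold changes. Sfrp2, a secreted Wnt modulator, had 3.43 and 7.88 CPM with BPTES and 115 and 78.3 CPM with DMSO, a log2 fold change of -3.98 ± 0.37, and -1.96 without Wt1-positive members. Rnd1, an atypical small GTPase, had 7.54 and 2.90 CPM with BPTES and 71.1 and 57.3 CPM with DMSO, with -3.74 and -1.66. Agt, the angiotensin precursor, had 4.11 and 1.24 CPM with BPTES and 49.9 and 39.5 CPM with DMSO and a log2 fold change of -4.21 ± 0.42, and in members without Wt1 it was too low to be tested. Rtn1, a reticulon of the endoplasmic reticulum, had 8.22 and 7.88 CPM with BPTES and 34.6 and 36.6 CPM with DMSO, with -2.13 and -0.74. All 4 were below 10 CPM in both BPTES libraries. They reached the mean of 10 CPM needed for naming through the DMSO libraries, a condition that favours large negative fold changes.

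On the higher side, Dmd (chrX:82948870-85206141, plus strand), the dystrophin gene, had the smallest p, with 353 and 269.6 CPM with BPTES and 96.5 and 106 CPM with DMSO. Its log2 fold change was 1.63 ± 0.19 (edgeR adjusted p = 0.0611), and 1.00 in members without Wt1. Dmd had at least 1 UMI in 48.3% and 53.6% of members with BPTES and in 44.5% and 45.6% with DMSO. Of its UMIs, 41.7% and 33.7% lay in 2 cells with BPTES, and 21.8% and 32.5% with DMSO. Bmp5, a ligand of the bone morphogenetic protein family, had 75.4 and 94.6 CPM with BPTES and 27.7 and 31.5 CPM with DMSO, with log2 fold changes of 1.54 ± 0.19 and 0.67. Both fold changes were smaller without the Wt1-positive members. Crispld1 had 45.2 and 67.6 CPM with BPTES and 12.0 and 18.1 CPM with DMSO, with 1.96 and 1.34. Npr3, the natriuretic peptide clearance receptor, had 43.9 and 29.9 CPM with BPTES and 11.5 and 14.3 CPM with DMSO, with 1.52 and 0.78. As on the lower side, genes were named here only if their groups did not overlap. Sort1, the sorting receptor sortilin, had 48.0 and 44.0 CPM with BPTES and 20.7 and 17.2 CPM with DMSO, with 1.27 and 0.48. Fblim1, an adaptor of cell-matrix adhesions, had 54.1 and 77.6 CPM with BPTES and 28.2 and 23.6 CPM with DMSO, with 1.36 and 0.92. The other 4 of the 10 were Frmpd4, 9630002D21Rik, Nlgn1 and Ppp1r14a, with log2 fold changes of 2.70, 1.50, 0.98 and 0.94 with all members and 1.77, 1.08, 0.29 and 0.19 without Wt1-positive ones.

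**Figure D3:**
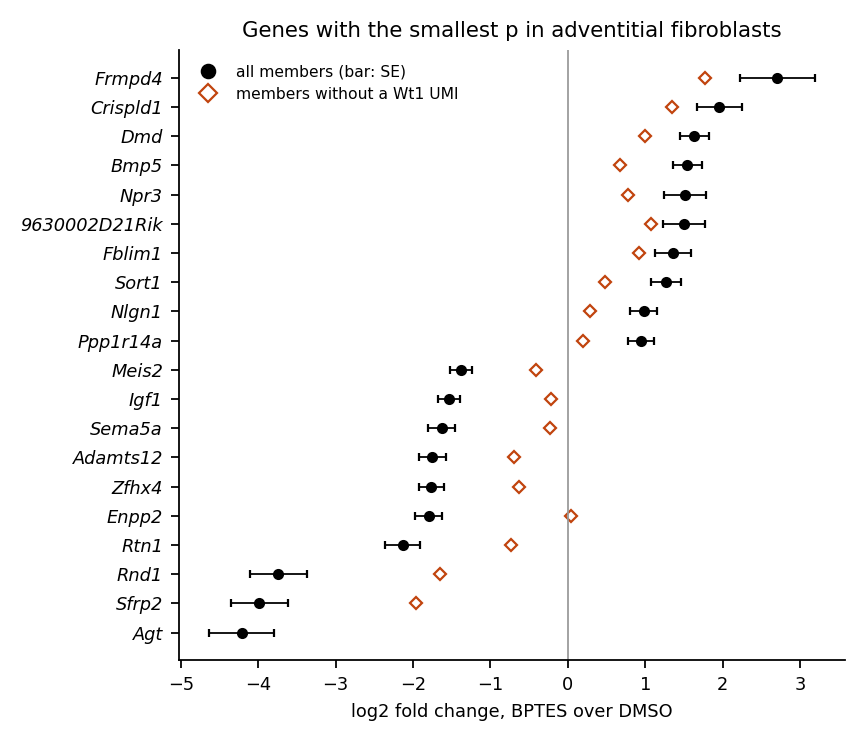
Log2 fold changes, BPTES over DMSO, of the 10 genes with the smallest p in each direction; filled circles with bars are all members with their standard error, and open diamonds are members without a Wt1 UMI (Agt was not tested there). All diamonds lie nearer to 0 than the circles, and the diamond of Enpp2 lies at 0.042.

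Most interferon response genes had lower values with BPTES, although edgeR called none of them in this comparison and DESeq2 called Ifit1 and Isg15 among those named below. Type I and type II interferons induce them, and their products restrict viruses and support antigen presentation. Of 31 genes on the list, 30 were in the matrix and 29 were tested. Among these, 19 were lower at an unadjusted p under 0.05, against 5.85% of all genes tested, and 0 were higher. In 23 the BPTES libraries were lower without overlap (21.8% of all genes), 28 had a fold change below 0, and their median was -0.88 on the log2 scale, against -0.0041 for the genes tested. In members without Wt1 the median was -0.70, with 14 of 25 lower at an unadjusted p under 0.05, where 2.96% of all genes were lower and 2.04% higher.

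Many promoters of such genes hold a DNA sequence that interferon signalling acts through, the interferon-stimulated response element. The 250 bases before the start of 3 genes are printed to show matches to its core, written 5′ to 3′ along the strand of the gene, from RefSeq on GRCm38.p6; capitals mark matches to GAAA, any 2 bases and GAAA on either strand. Ifit1 had the smallest p of the list, Ifit3 is a related gene on the same chromosome that missed an unadjusted p of 0.05, and Isg15 is a widely used marker of the response.
Ifit1, chr19:34640639-34640888, plus strand: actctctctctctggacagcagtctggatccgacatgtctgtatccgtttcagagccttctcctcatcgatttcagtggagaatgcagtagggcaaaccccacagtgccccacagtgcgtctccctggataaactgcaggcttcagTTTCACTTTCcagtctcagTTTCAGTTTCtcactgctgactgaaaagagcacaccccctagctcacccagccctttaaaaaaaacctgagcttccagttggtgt
Ifit3, chr19:34583279-34583528, plus strand: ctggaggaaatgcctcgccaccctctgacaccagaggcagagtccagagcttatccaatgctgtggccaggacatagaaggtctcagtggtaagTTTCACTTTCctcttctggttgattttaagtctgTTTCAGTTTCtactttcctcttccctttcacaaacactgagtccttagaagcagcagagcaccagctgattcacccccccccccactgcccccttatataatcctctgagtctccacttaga
Isg15, chr4:156200819-156201068, minus strand: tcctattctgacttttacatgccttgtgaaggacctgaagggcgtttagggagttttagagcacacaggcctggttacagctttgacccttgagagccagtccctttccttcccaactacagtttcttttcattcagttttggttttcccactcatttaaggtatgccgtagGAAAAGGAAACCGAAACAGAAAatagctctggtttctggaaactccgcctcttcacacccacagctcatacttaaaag
Ifit1 and Ifit3 have 2 matches each, and Isg15 has 3 that overlap, beginning between -78 and -66 from the start. The letters occur in 978 of 32851 RefSeq promoters of this length (2.98%) and in 288 of 8966 of the tested genes that have one (3.21%). On the interferon list they occur in 7 of 16 promoters of genes lower at an unadjusted p under 0.05 and in 6 of 8 of the other tested members. A match is a run of letters and was not tested as a binding site.

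Ifit1 (chr19:34640871-34650009, plus strand), whose product binds foreign RNA caps, had 5.48 and 9.95 CPM with BPTES and 49.6 and 35.3 CPM with DMSO. Both BPTES libraries were well below both DMSO libraries, with a log2 fold change of -2.39 ± 0.33 (edgeR adjusted p = 0.088), and -1.98 in members without Wt1. Isg15, a ubiquitin-like modifier, had 32.9 and 17.0 CPM with BPTES and 101 and 53.8 CPM with DMSO, with log2 fold changes of -1.69 ± 0.41 and -1.33. Ifit3 had 22.6 and 9.54 CPM with BPTES and 45.6 and 21.6 CPM with DMSO. Here DMSO replicate 2 lay below BPTES replicate 1, so the groups overlapped, with a log2 fold change of -1.16 ± 0.50.

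Other antiviral and regulatory members gave smaller differences. Oasl2, of the oligoadenylate synthetase family, had 41.1 and 19.1 CPM with BPTES and 75.8 and 44.2 CPM with DMSO, with log2 fold changes of -1.05 and -0.71. Bst2, the tetherin that holds budding virus at the membrane, had 98.0 and 65.1 CPM with BPTES and 142 and 131 CPM with DMSO, with -0.75 and -0.80. Usp18, which removes Isg15 from proteins, had 8.91 and 6.64 CPM with BPTES and 21.6 and 11.5 CPM with DMSO, with -1.13 and -1.16. In these 3 genes the BPTES libraries were lower without overlap. Guanylate-binding proteins and immunity-related GTPases are induced by interferon gamma. Gbp3 had 29.5 and 19.5 CPM with BPTES and 60.4 and 41.1 CPM with DMSO, with -1.09 and -1.06. Gbp7 had 38.4 and 29.4 CPM with BPTES and 70.3 and 53.5 CPM with DMSO, with -0.88 and -0.67. Iigp1 had 145 and 105 CPM with BPTES and 262 and 169 CPM with DMSO, with -0.78 and -0.65, and again none of the 3 overlapped. The chemokine Cxcl10 was the exception to the direction, with 267 and 105 CPM with BPTES and 185 and 119 CPM with DMSO and overlapping groups.

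Genes of MHC class I presentation were tested at the same time, and 2 of them (Psmb8 and Psmb9, immunoproteasome subunits) are also on the interferon list. All 14 of 14 had a fold change below 0, 4 were lower at an unadjusted p under 0.05 (5.85% of all genes tested), and 12 were lower without overlap (21.8%), with a median of -0.33 both with all members and without those with Wt1. Without Wt1-positive members, 2 of the 14 were lower at that threshold (2.96% of all genes) and 0 higher (2.04%). Psmb8 had 59.6 and 56.8 CPM with BPTES and 93.6 and 77.7 CPM with DMSO, with log2 fold changes of -0.55 and -0.50. The class I gene H2-T22 had 43.2 and 47.7 CPM with BPTES and 69.9 and 72.9 CPM with DMSO, with -0.64 and -0.46. Both were lower in each BPTES library than in either DMSO library.

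Single libraries weighed on the interferon count: without BPTES replicate 2 there were 4 of 30 genes lower and 1 higher at an unadjusted p under 0.05, where 5.65% and 3.46% of all genes were. Without DMSO replicate 1 there were 6 of 29 lower and 0 higher, where 4.56% and 2.64% of all genes were. Without BPTES replicate 1 the counts were 20 of 30 and 0 (5.14% and 3.33% of all genes), and without DMSO replicate 2 they were 22 of 29 and 0 (5.85% and 4.23%). In alveolar fibroblasts of the same libraries 9 of 30 were lower (12.5% of all genes there) and 1 was higher (14%), with a median of -0.21. Summed levels of 9 leukocyte markers were 2075 and 1836 CPM with BPTES and 254 and 700.0 CPM with DMSO, with Cd3e at 0 in 3 libraries. Leaving out the 5 members rich in Sftpc they were 207 and 133 CPM with BPTES and 254 and 173 CPM with DMSO, and the interferon count was 18. Endothelial markers summed over all members to 78.1 and 124 CPM with BPTES and 132 and 232 CPM with DMSO. Without those 5 members they summed to 79.0 and 128 CPM with BPTES and 132 and 236 CPM with DMSO. The part of such cells in the interferon values was not tested.

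**Figure D4:**
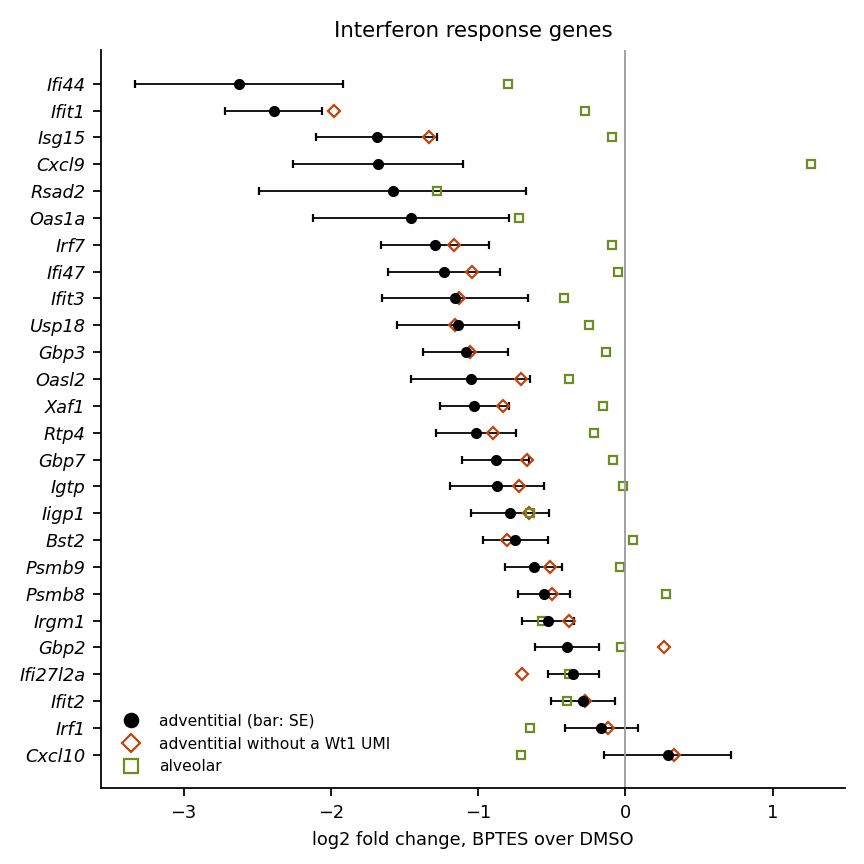
Log2 fold changes, BPTES over DMSO, of 26 of the 29 tested interferon response genes; circles with bars are all adventitial members with their standard error, diamonds are members without a Wt1 UMI where tested, and squares are alveolar fibroblasts. The circles lie below 0 for 25 of these genes, and Ifit1 stands at -2.39 in the members.

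Matrix genes showed no common direction. Of 26 collagen and collagen-processing genes, 3 were higher and 1 was lower at an unadjusted p under 0.05 (3.75% and 5.85% of all genes tested), with a median of -0.064. Col1a1, a chain of type I collagen, had 1181 and 959 CPM with BPTES and 2067 and 835 CPM with DMSO. Col3a1, which forms type III collagen, had 1802 and 1594 CPM with BPTES and 3649 and 1376 CPM with DMSO. DMSO replicate 1 was the highest library for both and DMSO replicate 2 the lowest, and without DMSO replicate 1 the log2 fold changes turned from -0.43 to 0.37 and from -0.56 to 0.31. Of 13 elastic fibre and microfibril genes, 1 was higher and 3 were lower, among them Fbln2, a fibulin of the vessel wall, with 205 and 404 CPM with BPTES and 471 and 604 CPM with DMSO and log2 fold changes of -0.81 and -0.25. Without the Wt1-positive members, 0 of the 13 were higher or lower at that threshold by edgeR (2.04% and 2.96% of all genes).

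Of 19 matrix proteases and inhibitors, 3 were higher and 7 lower at an unadjusted p under 0.05, where 3.75% and 5.85% of all genes were (median -0.040). Leaving out members with Wt1, 1 was higher and 3 were lower of 18 (2.04% and 2.96% of all genes). Mmp3, the protease stromelysin, had 898 and 562 CPM with BPTES and 339 and 435 CPM with DMSO, with a log2 fold change of 0.92 ± 0.25. In members without Wt1 it was 0.10. The inhibitor gene Timp3 had 1981 and 1778 CPM with BPTES and 1042 and 1363 CPM with DMSO, with 0.65 and 0.0066. Mmp2, a gelatinase, had 277 and 238 CPM with BPTES and 544 and 303 CPM with DMSO, with -0.71 and -0.13. In these 3 genes the groups did not overlap with all members, and the difference was smaller without the Wt1-positive ones.

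Of 13 Wnt pathway genes, 4 were lower (5.85% of all genes) and 0 higher (3.75%) at an unadjusted p under 0.05, while the list's median was 0.037. The 4 were Sfrp2, given above, the ligand Wnt5a and the Wnt-enhancing R-spondins Rspo1 and Rspo3. Among members lacking Wt1, 3 of 12 were lower (2.96% of all genes) and 0 higher (2.04%), with a median of -0.096, and Rspo3 was no longer among them, with a log2 fold change of -0.082. Wnt5a had 50.7 and 59.3 CPM with BPTES and 116 and 103 CPM with DMSO, a log2 fold change of -0.98 ± 0.17, and -0.50 in members without Wt1. Rspo1, which the mesothelium also makes, had 24.7 and 19.1 CPM with BPTES and 66.6 and 64.3 CPM with DMSO, with -1.59 and -0.61. Of 24 growth factor and receptor genes, 1 was higher and 5 were lower, with a median of -0.10. Of 21 TGF-beta and BMP signalling genes, 0 were higher and 2 were lower, with a median of 0.14. Once members with Wt1 were left out, the growth factor list had 0 higher and 2 lower of 24, and the TGF-beta and BMP list 0 higher and 0 lower of 21 by edgeR, against the same shares of all genes without Wt1.

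Of 24 chemokine, cytokine and alarmin genes, 3 were higher (3.75% of all genes) and 5 lower (5.85%), with a median of -0.061. In members without Wt1 1 was higher and 0 lower of 23 (2.04% and 2.96% of all genes). Ccl2, which draws monocytes, had 48.0 and 93.3 CPM with BPTES and 235 and 205 CPM with DMSO, a log2 fold change of -1.61 ± 0.30 and -0.69 without Wt1-positive members. Of its UMIs, 58.6% and 45.8% lay in 2 cells with BPTES, and 31.8% and 51.8% with DMSO. The neutrophil chemokine Cxcl1 had 753 and 444 CPM with BPTES and 1301 and 954 CPM with DMSO, with -0.91 and -0.31. Il33 (chr19:29925114-29960718, plus strand) had 169 and 128 CPM with BPTES and 253 and 213 CPM with DMSO, with a log2 fold change of -0.65 ± 0.20 (edgeR adjusted p = 0.398) and -0.42. The 3 genes were lower in both BPTES libraries. Il33 is also on the list of 20 adventitial markers outside the rule, of which 5 were lower and 1 higher at an unadjusted p under 0.05. Of 6 tested alveolar markers, 0 were lower and 2 higher. In members without Wt1, 2 of 20 adventitial markers were lower and 0 higher, and 0 of 6 alveolar markers were lower and 1 higher. Of 17 complement and acute-phase genes, 2 were higher and 4 lower, and 0 were higher and 2 lower in members without Wt1; C3 overlapped between groups.

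Genes of glutamine metabolism showed no common direction. Glul, glutamine synthetase, had 138 and 199 CPM with BPTES and 196 and 209 CPM with DMSO, with overlapping groups and a log2 fold change of -0.25 ± 0.20. Of 23 glutamine metabolism genes 1 was lower at an unadjusted p under 0.05 (5.85% of all genes) and 0 higher (3.75%), with a median of -0.031. That gene was Gfpt2, which uses glutamine to start the hexosamine pathway and is also an adventitial marker, with 601 and 754 CPM with BPTES and 843 and 1191 CPM with DMSO and log2 fold changes of -0.58 ± 0.21 and -0.36. Of 20 ATF4 amino acid stress genes 0 were higher and 1 was lower (median 0.073), of 22 TCA cycle enzymes none passed in either direction by edgeR at an unadjusted p under 0.05 (median 0.035), and of 17 glycolysis genes 0 were higher and 2 lower (median -0.033).

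Of 21 cholesterol and fatty acid synthesis genes, 18 had fold changes above 0, 3 were higher (3.75% of all genes) and 0 lower (5.85%) at an unadjusted p under 0.05, and the median was 0.31. Of these, Scd1, which desaturates fatty acids, had a log2 fold change of 1.36 that turned to -0.094 without the 5 members rich in Sftpc and to -0.056 without possible doublets. Epithelial markers in the members summed to 7051 and 9679 CPM with BPTES and 78.1 and 5421 CPM with DMSO, and to 343 and 260.3 CPM and 78.1 and 236 CPM without those 5. Their part in the lipid genes was otherwise not tested. In members without Wt1 0 were higher, 15 were above 0 and the median was 0.10. Insig1, the sterol-sensing retention protein, had 41.8 and 46.5 CPM with BPTES and 21.4 and 29.3 CPM with DMSO, with log2 fold changes of 0.83 and 0.31. Heat shock chaperones had 4 higher and 1 lower of 14 (median 0.15). In members without Wt1 there were 4 higher (2.04% of all genes) and 0 lower (2.96%), with a median of 0.21. Hspa1a, the inducible cytosolic chaperone, had 70.6 and 103 CPM with BPTES and 37.2 and 50.3 CPM with DMSO, with log2 fold changes of 1.02 and 0.89. Hspa5, the chaperone of the endoplasmic reticulum, had 1091 and 2392 CPM with BPTES and 748 and 987 CPM with DMSO, with 1.02 in both, and BPTES replicate 2 stood well above the rest. Of 22 immediate early genes 0 were higher and 5 lower (median -0.28), and without Wt1-positive members 1 was lower.

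Senescence was read from 22 tested genes, of which 1 was higher (Mmp3; 3.75% of all genes) and 5 were lower (5.85%), with a median of -0.031. Without Wt1-positive members 0 were higher and 1 was lower of 20 (2.04% and 2.96% of all genes). The cell-cycle inhibitor gene Cdkn2a, whose product p16 marks senescent cells, had 0 and 0.415 CPM with BPTES and 2.96 and 0.318 CPM with DMSO and was too low to be tested. Cdkn1a, which encodes p21, had 198 and 216 CPM with BPTES and 142 and 227 CPM with DMSO, with overlapping groups and a log2 fold change of 0.18 ± 0.24 (edgeR adjusted p = 0.871). No difference was detected for Cdkn1a, and the depth did not allow a test of Cdkn2a. A further inhibitor gene, Cdkn2b, was among the 5 lower at an unadjusted p under 0.05, with Ccl2, Cxcl1, Igfbp5 and Plau. None of the 5 was called by edgeR.

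The treatment effect in adventitial fibroblasts was next compared with that in alveolar fibroblasts of the same 4 libraries, by a class-by-treatment term in edgeR. Of 17033 genes, 64 passed an adjusted p under 0.05: for 52 the effect was more negative in adventitial fibroblasts (0.305%) and for 12 more positive (0.0705%). Of the 64, 45 also differed in alveolar fibroblasts alone at an unadjusted p under 0.05. In alveolar fibroblasts alone edgeR called 0 of 17403 genes, with 2184 lower (12.5%) and 2445 higher (14%) at an unadjusted p under 0.05. The genes named from here on were chosen after their values were seen.

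A first group had fold changes of opposite sign in the 2 classes. Il33 was lower with BPTES in the members (log2 -0.65), while in alveolar fibroblasts it had 74.7 and 73.9 CPM with BPTES and 18.2 and 26.4 CPM with DMSO (log2 1.77). The difference between the effects was -2.46 ± 0.27 (edgeR adjusted p = 0.021). Hp (chr8:109575128-109579172, minus strand), the hemoglobin-binding acute-phase protein haptoglobin, had 31.5 and 45.2 CPM with BPTES and 216 and 100.3 CPM with DMSO in the members and 185 and 249 CPM with BPTES and 78.3 and 92.9 CPM with DMSO in alveolar fibroblasts, a difference of -3.34 ± 0.40. Lpl, lipoprotein lipase, had 193 and 195 CPM with BPTES and 510.2 and 359.7 CPM with DMSO in the members and 86.6 and 103 CPM with BPTES and 57.5 and 58.6 CPM with DMSO in alveolar fibroblasts, a difference of -1.88 ± 0.22. With all members, in all 3 genes the BPTES libraries were lower in adventitial and higher in alveolar fibroblasts, without overlap in either class. The activin antagonist Fst, with 27.4 and 49.4 CPM with BPTES and 149 and 186 CPM with DMSO in the members, differed by -3.27 ± 0.39. Without Wt1-positive members the differences were -2.16 for Il33, -2.38 for Hp and -2.59 for Fst. For Lpl the difference was then -0.80, with a fold change in the members of -0.094.

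Other genes had smaller fold changes in alveolar fibroblasts than in the members. The difference between the effects was -1.80 ± 0.19 for Igf1, whose alveolar log2 fold change was 0.25. For Enpp2 it was -1.79 ± 0.17, with alveolar levels of 45.9 and 41.7 CPM with BPTES and 42.2 and 47.8 CPM with DMSO. For Ccl2 it was -2.09 ± 0.31 and for Wnt5a -1.24 ± 0.20, with alveolar log2 fold changes of 0.44 and 0.26. For Ifit1 it was -2.17 ± 0.33 (edgeR adjusted p = 0.0321). Ifit1 was the 1 interferon list gene called, with 4.99 and 6.32 CPM with BPTES and 8.96 and 5.18 CPM with DMSO in alveolar fibroblasts. Without Wt1-positive members the differences were -0.42 for Igf1, 0.082 for Enpp2, -1.03 for Ccl2, -0.72 for Wnt5a and -1.72 for Ifit1, so that of Enpp2 turned its sign. In the positive direction, Bmp5 differed by 1.69 ± 0.22 and Dmd by 1.60 ± 0.21, and by 0.85 and 1.01 without those members. Their alveolar levels were alike in the 2 groups, at 369 and 413 CPM with BPTES and 405 and 384 CPM with DMSO for Dmd.

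The count of 64 rested on which members and libraries entered. Without Wt1-positive members 1 gene was called, Hp (difference -2.38), and 59 of the 64 kept their direction, Enpp2 being among the 5 that did not. Of the Hp UMIs of all members, 91.3% and 51.4% lay in 2 cells with BPTES, and 40.0% and 31.1% with DMSO. In BPTES replicate 1 there were 46 such UMIs. Without BPTES replicate 2 there were 3 calls, with 0 of the 64 among them. Without DMSO replicate 1 there were 343 and without DMSO replicate 2 759, and both counts held 64 of the 64.

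**Figure D5:**
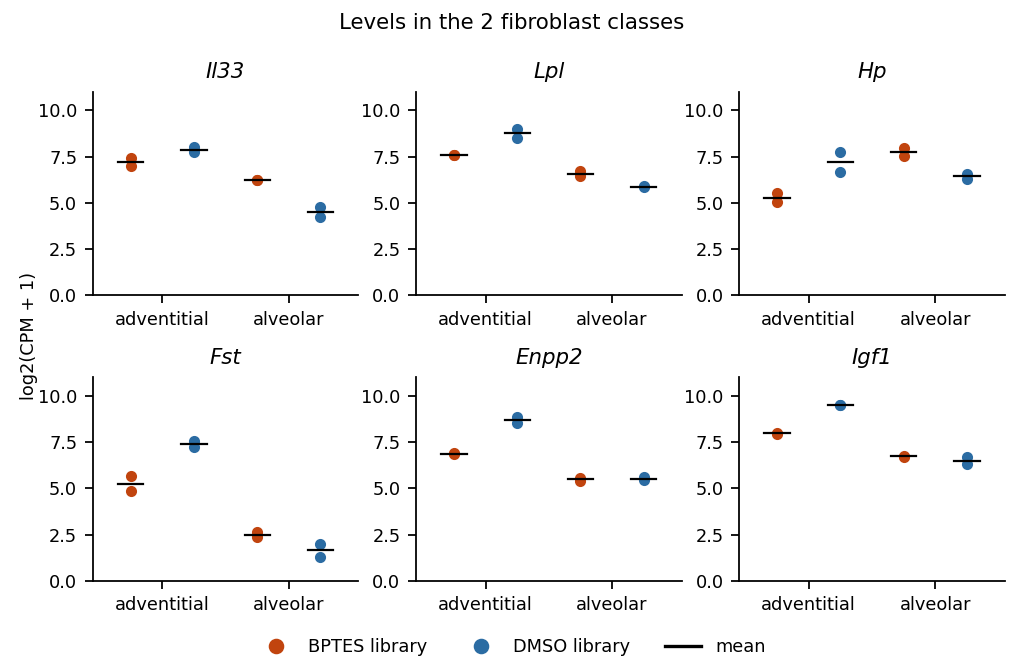
Levels of 6 genes with a called difference between the classes, as log2(CPM + 1), in adventitial and alveolar fibroblasts of each library; points are libraries and bars are means of 2. With all members, Il33, Lpl, Hp and Fst are lower with BPTES in adventitial and higher in alveolar fibroblasts, while Enpp2 and Igf1 differ between groups mainly in adventitial fibroblasts.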

How the data were processed

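UMI counts per gene and barcode were deposited as matrices for 4 libraries; the authors made them with Cell Ranger 8.0.1 on mm10 (GRCm38), per the submitters' processing notes. The counts were summed over members per library, since cells are not replicates. R 4.3.3 with edgeR 4.0.16 (TMM, filterByExpr, quasi-likelihood test, Benjamini-Hochberg over all genes tested) gave the main results; DESeq2 1.42.0 was an alternative. The term comparing classes was fitted over 8 sums with library as a covariate. Levels are UMIs per 1000000 summed UMIs of a class and library (CPM). Shares carry 95% exact binomial intervals, and a count of 0 allows 3 counts of the total; both cover counting error only. No doublet caller was run; leaving out members with 3 or more UMIs over 6 genes of other cell types, or more than 2.5 times their library's median UMIs, was an alternative. Members without Wt1, or without cells holding 100 or more Sftpc UMIs, were alternatives chosen after seeing the data.

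The members, the 34 gene lists and the tests were chosen with earlier results of these data known. Genes named for treatment were the 10 with the smallest p per direction among those with a mean of at least 10 CPM and groups that did not overlap, the members of highest level or lowest p on the lists, and Cdkn2a, Cdkn1a, Glul, Cd74 and Il33. Others were named after their values were seen. The 14 gate genes stayed in the fits and out of every count. Coordinates are from GENCODE M21 on GRCm38, and the scripts were tested on simulated data. Some genes are not reported here.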

Additional observations from a re-analysis of the deposited data

Results flagged for a closer look

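The effect of BPTES differed between adventitial and alveolar fibroblasts for 64 genes at an edgeR adjusted p under 0.05, which is the reason for listing them here. The values are log2 fold changes in adventitial minus those in alveolar fibroblasts, for the called genes that the text or its naming rule includes. The larger negative differences were Rnd1 -4.29, Col6a5 -3.64, Hp -3.34, Fst -3.27, Eya2 -2.92, Il33 -2.46, Npr1 -2.30, Ifit1 -2.17, Ccl2 -2.09 and Lpl -1.88. The smaller ones were Igf1 -1.80, Enpp2 -1.79, Hspb1 -1.61, Gja1 -1.56, Rtn1 -1.53, Col15a1 -1.53, Sema5a -1.37, Zfhx4 -1.34, Wnt5a -1.24 and Meis2 -1.07. The positive differences were Ptx3 3.05, Bmp5 1.69, Limch1 1.63, Dmd 1.60, Sort1 1.43 and Ppp1r14a 1.16. For Col6a5, a collagen VI chain, the members held 3.43 and 8.71 CPM with BPTES and 504 and 155 CPM with DMSO, with members holding Wt1 far above the others within each DMSO library. Ptx3, a soluble pattern-recognition protein, had a positive difference although its level was lower with BPTES in both classes. Without members that hold Wt1, 1 of the 64 was called and 59 had the same sign. Among the 5 that turned were Col6a5 (0.56), Sema5a (0.084) and Enpp2 (0.082), and Rnd1 was -2.02.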

How the results depend on the processing

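The count of genes called between BPTES and DMSO in adventitial fibroblasts was 0, and it depended on the setting. It was 0 with RLE or no normalisation factors, with a 5% mitochondrial limit and without possible doublets. It was 92 with DESeq2, 692 with no filter on low counts, 14 with a mean of at least 10 CPM, 3 with at least 4 gate markers, 7 on members thinned to 5000 UMIs, 17 without members rich in Sftpc and 0 without members that hold Wt1. With the sample number as a replicate block it was 307, 86 higher and 221 lower; the numbers are not known to pair the libraries, and the deviations of same-numbered libraries correlated at 0.114 across genes. Leaving out each library gave 0 to 168. The count of 64 genes that differed between the classes was 201 with DESeq2, 742 with no filter, 0 with a mean of at least 10 CPM, 1 without members that hold Wt1 and 3 to 759 without each library. The 19 of 29 interferon genes lower at an unadjusted p under 0.05 were 12 of 30 with DESeq2 and 10 of 22 on thinned counts. Over all genes and both directions, 1108 of 11546 passed that threshold in the main setting, 635 of 19704 with DESeq2 and 574 of 7155 on thinned counts. Interferon counts without single libraries are given above. The difference in share was negative under every setting tried, from -1.22 to -0.15 points. The cause of these changes was not tested.

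Of 1248 fold changes recomputed for 79 genes, 17 changed sign. Cd74 was -0.23 with at least 4 gate markers, -0.54 without possible doublets and without Sftpc-rich members. Scd1 was -0.16, -0.056 and -0.094 with at least 4 gate markers, without doublets and without Sftpc-rich members. Leaving out each library gave Cd74 -0.075 to 2.32, Cdkn1a -0.12 to 0.55, Col1a1 -0.94 to 0.37 and Col3a1 -1.10 to 0.31. Without DMSO replicate 1, Cd74 was -0.017, Cdkn1a -0.12, Col1a1 0.37 and Col3a1 0.31. Without members that hold Wt1, Enpp2 was 0.042, Dcn 0.051, Eya2 0.011, Gja1 0.30, Hspb1 0.076 and Lsamp -0.16. What the depth limits was not tested beyond the thinned counts above.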
